A study of Mus musculus with 9 samples.

Results

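Expression of 8 genes that mark pericytes and other mural cells, or that carry the main signal to them, was followed in the medial prefrontal cortex of stressed and non-stressed mice. The genes were Pdgfb, Pdgfrb, Vtn, Anpep, Rgs5, Abcc9, Notch3 and Higd1b. They were taken as the rows of the count table whose NCBI gene identifiers carry these mouse symbols, and all 8 were found among 36172 features. Mural cells are the pericytes that wrap capillaries and the smooth muscle cells of larger vessels. Endothelial cells secrete PDGF-B, which is held near the vessel wall and activates the receptor PDGFRB on pericytes, and this signal recruits pericytes and keeps them on the vessel. In the brain, pericytes share a basement membrane with the endothelium and take part in forming the blood-brain barrier.

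The mice were of the inbred strain DBA2/J, and the labels give neither their age nor their sex. Mice of the SA:ANH-KDM5Ci group went through 5 days of social defeat, a stress in which a mouse is exposed to an aggressor, and were given an inhibitor of KDM5C, a histone demethylase that acts on H3K4. Mice of the SA:ANH-vehicle group went through the same stress and were given vehicle, which the treatment labels call saline. Mice of the NS group were not stressed, and their treatment label also names saline. Both stressed groups consist of a subtype of defeated mice that the submitters call SA:ANH, whose meaning and selection are not given in the sources used here, as are the identity and dose of the inhibitor. RNA sequencing of whole tissue gave 3 samples per group, but the labels do not state whether these were different animals. A p-value here therefore rests on differences among 3 samples that could be technical replicates.

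Sequencing depth was 30525714 to 40700115 counts per SA:ANH-KDM5Ci library, 33733470 to 42196472 per SA:ANH-vehicle library and 29845097 to 36033714 per NS library. Summed levels of 11 cortical neuron markers were 6280 to 6680 CPM (a gene's counts scaled to a common library total) in SA:ANH-KDM5Ci, 6490 to 6750 CPM in SA:ANH-vehicle and 6490 to 6910 CPM in NS. Markers of the meninges and of fibroblasts differed between the libraries. All 20 genes of that list were detected, and their summed level was 442 to 593 CPM in SA:ANH-KDM5Ci, 683 to 940 CPM in SA:ANH-vehicle and 537 to 870 CPM in NS. A score of the list, the median of its members' log2 CPM after subtracting each gene's mean over the 9 libraries, was -0.51, -0.40 and -0.36 in SA:ANH-KDM5Ci, 0.67, 0.08 and 0.01 in SA:ANH-vehicle and -0.20, 0.34 and 0.44 in NS. Thus by this score SA:ANH-KDM5Ci lay below both other groups in every library, and SA:ANH-vehicle replicate 1 stood above all the others. The summed levels of SA:ANH-KDM5Ci and NS overlapped, with 593 CPM in SA:ANH-KDM5Ci replicate 3 and 537 CPM in NS replicate 1. Perivascular and meningeal fibroblasts can also express Pdgfrb and Anpep, so the values of this list are given beside the results it moves with.

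All 8 genes were detected in every library. Levels of different genes were compared as CPM per kilobase of annotated exon. Vtn had the highest level, with a mean over the 9 libraries of 22.2 CPM per kilobase and a range of 18.5 to 27.4. Rgs5 followed at 11.2 (9.22 to 12.7), and its range lay wholly below that of Vtn and wholly above that of Pdgfb. Pdgfb, at 5.44 CPM per kilobase (4.48 to 6.16), and Pdgfrb, at 4.14 (3.15 to 5.07), overlapped in range, although Pdgfb was the higher of the pair in 8 of 9 libraries. The 4 lowest genes overlapped each with its neighbour, at 2.22 CPM per kilobase for Higd1b, 1.93 for Notch3, 1.36 for Abcc9 and 1.11 for Anpep. Contractile smooth muscle genes were also present: Myh11, the smooth muscle myosin heavy chain, averaged 6.98 ± 0.854 CPM in SA:ANH-KDM5Ci, 8.06 ± 1.86 CPM in SA:ANH-vehicle and 7.86 ± 1.5 CPM in NS (SD, n = 3 each). Acta2, smooth muscle actin, was listed at 0 in all 9 libraries, as was Map3k7cl. An exact 0 in these estimated counts can be a failed estimate, so no level is given for them.

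**Figure D1:**
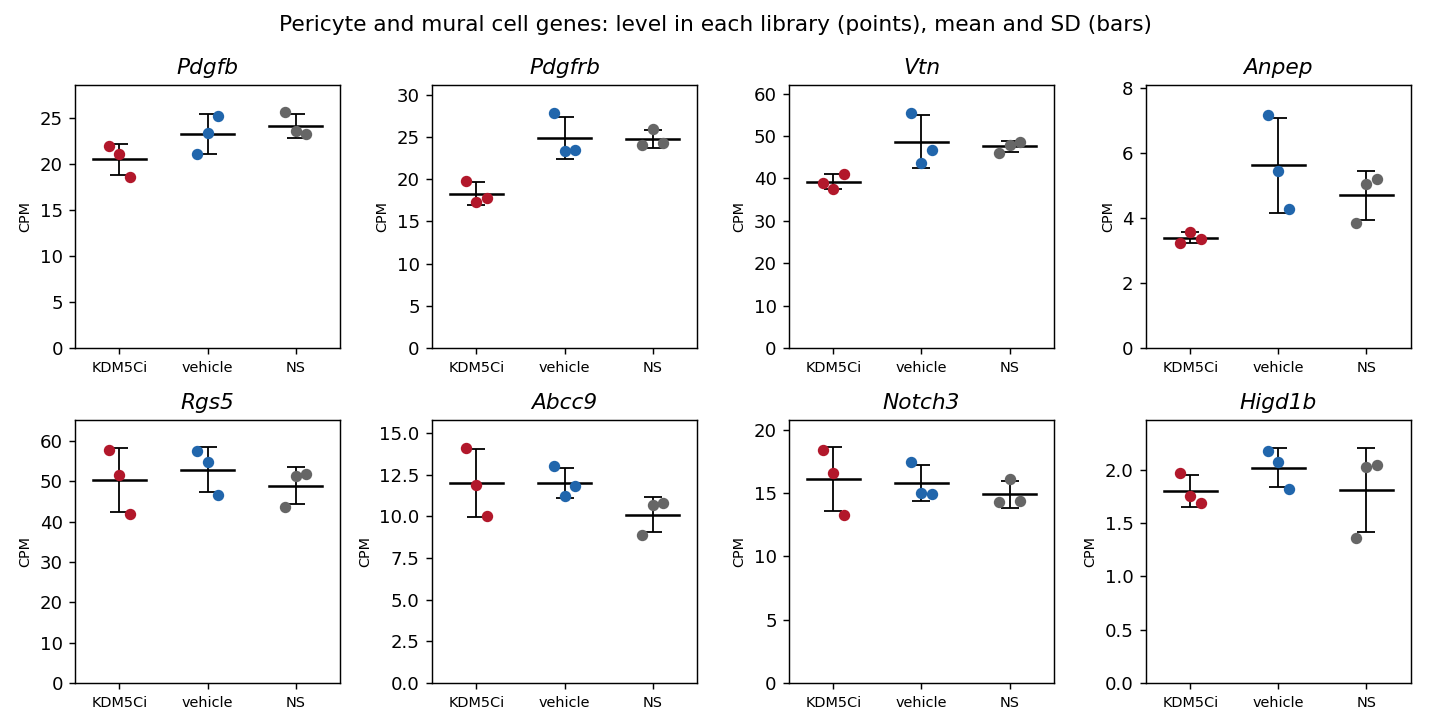
Level of each of the 8 genes in CPM (vertical axes start at 0) in the SA:ANH-KDM5Ci, SA:ANH-vehicle and NS libraries, where points are libraries, horizontal lines are means and bars are SDs of 3 libraries. Pdgfrb lay at 17.3 to 19.8 CPM in SA:ANH-KDM5Ci, below all libraries of both other groups, while Rgs5, Abcc9 and Notch3 overlapped between SA:ANH-KDM5Ci and SA:ANH-vehicle.

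The 8 genes did not vary as a block across the libraries. Likeness was measured as the root mean square difference between the profiles of a pair of genes, each profile being log2 CPM over the 9 libraries after subtracting the gene's mean. The closest pair was Rgs5 and Notch3 at 0.09 (log2 units), followed by Pdgfrb and Vtn at 0.10, Abcc9 and Notch3 at 0.10, and Rgs5 and Abcc9 at 0.11. The pairs farthest apart were Anpep with Abcc9 at 0.38 and Anpep with Notch3 at 0.36. These values describe 9 libraries that share depth and composition, and no test was made of them. In SA:ANH-KDM5Ci replicate 3, 0 of the 8 genes were above their own mean over the libraries, against 4 and 3 in the other libraries of that group. In SA:ANH-vehicle replicates 1, 2 and 3 the number was 7, 5 and 4, and in NS it was 3, 7 and 6.

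Promoters were read for the 5 genes of the 8 that have an entry in the RefSeq promoter table of GRCm38.p6, and 4 of them are shown: Vtn and Anpep, which lay lower in SA:ANH-KDM5Ci libraries, and Rgs5 and Notch3, whose profiles were the closest pair. Each stretch has 280 bases, from 250 before the annotated start to 30 after it, 5′ to 3′ on the strand of the gene. They lie at chr11:78498870-78499149 (plus strand) for Vtn, chr7:79848181-79848460 (minus strand) for Anpep, chr1:169655251-169655530 (plus strand) for Rgs5 and chr17:32166861-32167140 (minus strand) for Notch3. Capitals mark matches, on either strand, to 3 short motifs: TGGGAA of RBPJ, the DNA-binding partner of Notch receptors, AGAACA of the glucocorticoid receptor, and ACGTG of the hypoxia-inducible factors.
Vtn: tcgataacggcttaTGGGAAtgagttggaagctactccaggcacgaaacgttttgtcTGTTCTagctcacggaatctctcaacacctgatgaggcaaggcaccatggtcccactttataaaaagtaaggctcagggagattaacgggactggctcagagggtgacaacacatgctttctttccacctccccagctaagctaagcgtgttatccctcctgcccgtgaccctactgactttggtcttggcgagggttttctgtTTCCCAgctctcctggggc
Anpep: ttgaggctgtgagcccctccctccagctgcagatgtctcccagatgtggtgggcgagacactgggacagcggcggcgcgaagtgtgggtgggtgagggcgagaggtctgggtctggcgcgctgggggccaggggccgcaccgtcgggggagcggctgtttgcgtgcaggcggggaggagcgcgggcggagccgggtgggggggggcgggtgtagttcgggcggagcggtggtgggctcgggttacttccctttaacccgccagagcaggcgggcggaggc
Rgs5: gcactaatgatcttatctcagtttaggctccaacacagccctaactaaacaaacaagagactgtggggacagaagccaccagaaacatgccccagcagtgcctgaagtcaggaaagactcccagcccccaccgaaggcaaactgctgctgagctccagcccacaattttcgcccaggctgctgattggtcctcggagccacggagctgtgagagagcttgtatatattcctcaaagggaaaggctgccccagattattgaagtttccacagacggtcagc
Notch3: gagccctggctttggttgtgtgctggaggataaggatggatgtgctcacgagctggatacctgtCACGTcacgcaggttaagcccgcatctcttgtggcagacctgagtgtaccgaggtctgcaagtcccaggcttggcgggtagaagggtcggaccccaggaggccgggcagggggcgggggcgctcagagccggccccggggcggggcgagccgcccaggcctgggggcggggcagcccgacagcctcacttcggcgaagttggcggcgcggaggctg
Positions before the annotated start are negative, those from the start base onward are positive, and there is no position 0. The Vtn promoter held the RBPJ letters at -236 and, as TTCCCA on the opposite strand, at 12. It held the glucocorticoid receptor letters as TGTTCT at -193. Notch3 held the hypoxia-inducible factor letters as CACGT at -186, Anpep and Rgs5 held none of the 3 motifs, and Abcc9 held the RBPJ letters at -221. No match of these motifs overlapped another in these stretches. Among 32851 promoters of the same length, 23.8% held the RBPJ letters, 17.8% those of the glucocorticoid receptor and 18.5% those of the hypoxia-inducible factors, so such matches are common.

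The comparison of SA:ANH-KDM5Ci with SA:ANH-vehicle asks what the inhibitor did in stressed mice. Pdgfrb and Anpep fell, and 6 of the 8 genes did not pass the test. The test was the quasi-likelihood F test of edgeR, its p-values were adjusted over 15144 genes by Benjamini and Hochberg's method, and a gene passed at an adjusted p under 0.05. Of all genes tested, 2.51% passed, 1.62% lower and 0.891% higher, beside which the count was 2 lower and 0 higher among the 8. The median log2 fold change of the 8 genes was -0.18, against 0 over all genes. In whole tissue, fewer cells of a type and less RNA per cell cannot be told apart.

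Pdgfrb encodes the receptor tyrosine kinase that pericytes need for recruitment (NCBI gene 18596, chr18:61045127-61085067, plus strand, GRCm38). It had 19.8, 17.3 and 17.8 CPM in SA:ANH-KDM5Ci libraries, against 27.8, 23.3 and 23.5 CPM in SA:ANH-vehicle libraries and 24.1, 26.0 and 24.3 CPM in NS libraries. Every SA:ANH-KDM5Ci library was below every library of both other groups. The means were 18.3 ± 1.32 CPM in SA:ANH-KDM5Ci and 24.9 ± 2.5 CPM in SA:ANH-vehicle (SD, n = 3 each), a log2 fold change of -0.45 (SE 0.08, 95% interval -0.62 to -0.28, edgeR adjusted p = 0.00858). The call held when any of the 9 libraries was left out, with adjusted p from 0.00988 to 0.0419 by the same test. With the score of the meningeal and fibroblast list as a covariate the log2 fold change was -0.30 and the adjusted p by edgeR 0.451.

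Pdgfb encodes the ligand of that receptor (gene 18591, chr15:79995865-80024614, minus strand). Its level was 21.9, 21.1 and 18.6 CPM in SA:ANH-KDM5Ci libraries, against 21, 23.3 and 25.2 CPM in SA:ANH-vehicle libraries, so the groups overlapped. The log2 fold change was -0.18 (95% interval -0.35 to 0.00, edgeR adjusted p = 0.364). An antisense gene, Gm41361, overlaps Pdgfb, and since it is not stated whether the counting used the strand, reads of the pair cannot be told apart. Of 5 other genes of PDGF ligands and receptors, 0 passed in any of the 3 comparisons. Pdgfa, a ligand that binds mainly the alpha receptor, was at 29.2 ± 2.53 CPM in SA:ANH-KDM5Ci and 26.8 ± 1.05 CPM in SA:ANH-vehicle (SD, n = 3 each; log2 fold change 0.13, edgeR adjusted p = 0.474). Pdgfra, the alpha receptor, which marks oligodendrocyte precursors and fibroblasts in the brain, was at 60.4 ± 6.11 CPM in SA:ANH-KDM5Ci and 55.3 ± 3.11 CPM in SA:ANH-vehicle (SD, n = 3 each; log2 fold change 0.12, adjusted p = 0.526 by edgeR).

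Anpep encodes CD13, an aminopeptidase on the cell surface that is used as a pericyte marker (gene 16790, chr7:79821803-79848210, minus strand). SA:ANH-KDM5Ci libraries had 3.25, 3.59 and 3.36 CPM, SA:ANH-vehicle libraries 7.17, 5.46 and 4.27 CPM, and NS libraries 3.84, 5.04 and 5.22 CPM. The SA:ANH-KDM5Ci libraries were close together and below all others, while SA:ANH-vehicle replicate 1 was the highest of the 9. The log2 fold change was -0.74 (SE 0.18, 95% interval -1.12 to -0.35, edgeR adjusted p = 0.0492), the largest change among the 8 genes. This call depended on single libraries: it held in 2 of 9 fits with 1 library left out, with log2 fold changes of -0.90 to -0.52 and edgeR adjusted p from 0.0156 to 0.172, and it was lost without any of the 3 SA:ANH-KDM5Ci libraries, SA:ANH-vehicle replicates 1 or 2, or NS replicates 2 or 3. Without SA:ANH-vehicle replicate 1 the log2 fold change was -0.52 (adjusted p = 0.165 by edgeR), and with the meningeal and fibroblast score as a covariate it was -0.15 (adjusted p = 0.877). Another annotated gene, Gm44974, overlaps Anpep on the same strand, and reads of the pair cannot be told apart.

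Vtn encodes vitronectin, a secreted glycoprotein that binds integrins and that brain pericytes produce (gene 22370, chr11:78499120-78502325, plus strand). It was measured at 39.0, 37.6 and 41.1 CPM in SA:ANH-KDM5Ci libraries, against 55.5, 43.6 and 46.8 CPM in SA:ANH-vehicle libraries. The groups did not overlap, although the nearest libraries differed by little. The log2 fold change was -0.31 (SE 0.08, 95% interval -0.48 to -0.14), and with an edgeR adjusted p of 0.0568 it missed the threshold. It passed in 3 of 11 other settings, by DESeq2 (adjusted p = 0.0173), without the filter on low counts (0.0402 by edgeR) and without TMM (0.0414 by edgeR), and in 1 of 9 fits that left out a library, the 1 without SA:ANH-vehicle replicate 2 (0.0298 by edgeR). With the meningeal and fibroblast score as a covariate edgeR gave a log2 fold change of -0.11 (adjusted p = 0.819). Pdgfrb, Anpep and Vtn were the 3 genes of the 8 whose groups did not overlap and whose unadjusted p was under 0.05 (14.2% of all genes tested), all lower, while 10.9% of all genes tested were lower without overlap, 7.92% higher and 18.9% either.

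Rgs5 encodes a regulator that shortens G protein signalling and is among the most abundant transcripts of brain pericytes (gene 19737, chr1:169655501-169695813, plus strand). It had 57.7, 51.5 and 41.9 CPM in SA:ANH-KDM5Ci libraries, against 57.4, 54.7 and 46.6 CPM in SA:ANH-vehicle libraries, and the groups overlapped over most of their range. Its log2 fold change was -0.07 (95% interval -0.34 to 0.19, edgeR adjusted p = 0.842). With 3 libraries per group, changes inside that interval remain compatible with the data.

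Abcc9 encodes the sulfonylurea receptor SUR2, the regulatory subunit of a potassium channel that closes on ATP (gene 20928, chr6:142587862-142702766, minus strand). Its libraries held 14.1, 11.9 and 10.0 CPM in SA:ANH-KDM5Ci, against 13, 11.2 and 11.8 CPM in SA:ANH-vehicle. The SA:ANH-KDM5Ci libraries reached above and below those of SA:ANH-vehicle, and the log2 fold change was -0.01 (95% interval -0.26 to 0.25, edgeR adjusted p = 0.988). Its antisense neighbour 5330439B14Rik was listed at 0 in all libraries. Kcnj8, the pore subunit that pairs with it in mural cells, was at 3.36 ± 0.396 CPM in SA:ANH-KDM5Ci and 3.03 ± 0.0772 CPM in SA:ANH-vehicle (SD, n = 3 each), a log2 fold change of 0.15 (95% interval -0.16 to 0.47, edgeR adjusted p = 0.709). The neuronal pore subunit Kcnj11 had a log2 fold change of -0.14 (adjusted p = 0.435 by edgeR), and 0 of the 3 other subunits of these channels passed.

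Notch3 encodes the Notch receptor of mural cells, which in humans is mutated in the small vessel disease CADASIL (gene 18131, chr17:32120820-32166896, minus strand). Its level was 18.4, 16.6 and 13.3 CPM in SA:ANH-KDM5Ci libraries and 17.5, 15.0 and 14.9 CPM in SA:ANH-vehicle libraries, and the groups overlapped. The log2 fold change was 0.02 (95% interval -0.21 to 0.26, edgeR adjusted p = 0.955). Gm17276 lies antisense to it, and reads of the pair cannot be told apart. Higd1b, whose product belongs to a family of mitochondrial proteins named for induction by hypoxia (gene 75689, chr11:102835761-102844141, plus strand), was the least abundant by CPM. It had 1.97, 1.75 and 1.69 CPM in SA:ANH-KDM5Ci libraries and 2.18, 2.07 and 1.82 CPM in SA:ANH-vehicle libraries, which overlapped. Its log2 fold change of -0.18 had a wide interval of -0.57 to 0.21 (edgeR adjusted p = 0.731).

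**Figure D2:**
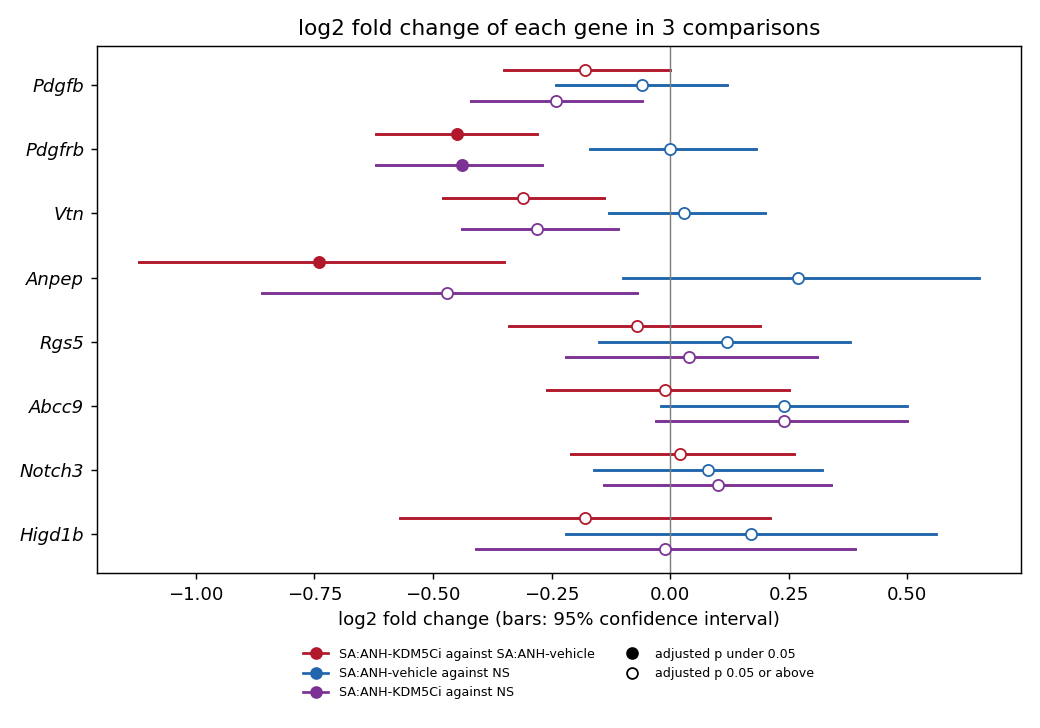
log2 fold change of each gene (horizontal axis) in 3 comparisons, with bars for the 95% confidence interval and filled points for an edgeR adjusted p under 0.05. Pdgfrb is filled against both SA:ANH-vehicle and NS, at -0.45 and -0.44, Anpep against SA:ANH-vehicle, at -0.74, and no gene in SA:ANH-vehicle against NS.

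The level of Pdgfrb relative to Rgs5 in the same library was lower in SA:ANH-KDM5Ci. The ratio of their CPM was 0.342, 0.335 and 0.424 in SA:ANH-KDM5Ci libraries, against 0.484, 0.427 and 0.505 in SA:ANH-vehicle libraries and 0.554, 0.508 and 0.469 in NS libraries. The SA:ANH-KDM5Ci libraries were below the others, the nearest pair being 0.424 and 0.427. This ratio was chosen after the values had been seen, and no test was made of it. The intervals of the log2 fold changes of Pdgfrb and Rgs5 overlapped.

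Few other pericyte markers passed. Of 21 such genes, 1 fell and 0 rose, with a median log2 fold change of -0.10, 8 values being positive and 13 negative. Which cells the transcripts of this list came from cannot be told in whole tissue. The gene that fell was Tbx18, a transcription factor of mural cells. It had 1.74, 2.55 and 2.12 CPM in SA:ANH-KDM5Ci libraries, against 4.92, 3.67 and 3.38 CPM in SA:ANH-vehicle libraries, without overlap. Its log2 fold change was -0.91 (SE 0.17, edgeR adjusted p = 0.0123), and the call was lost without SA:ANH-KDM5Ci replicates 1 or 3 (adjusted p = 0.055 and 0.0579 by edgeR), without SA:ANH-vehicle replicate 1 (0.0503), and with the meningeal and fibroblast score as a covariate (log2 fold change -0.53, adjusted p = 0.523). Foxf2, a transcription factor of brain pericytes, was at 2.38 ± 0.183 CPM in SA:ANH-KDM5Ci and 3.61 ± 0.354 CPM in SA:ANH-vehicle (SD, n = 3 each; log2 fold change -0.61, edgeR adjusted p = 0.0675). Cspg4, the proteoglycan NG2, and Atp13a5, a transporter found in brain pericytes, were given after their values were seen, with log2 fold changes of 0.06 (95% interval -0.13 to 0.25) and -0.08 (95% interval -0.30 to 0.13). Zic1, a zinc finger transcription factor, and Gucy1a1, a subunit of the nitric oxide receptor, were lower, at -0.53 and -0.26. Neither passed (edgeR adjusted p = 0.0723 and 0.0925). Among 14 contractile smooth muscle genes 11 were tested and 0 passed, with a median of -0.05. Des, desmin, was at 0.40 (edgeR adjusted p = 0.32) and Smtn, smoothelin, at 0.13 (adjusted p = 0.75).

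**Figure D3:**
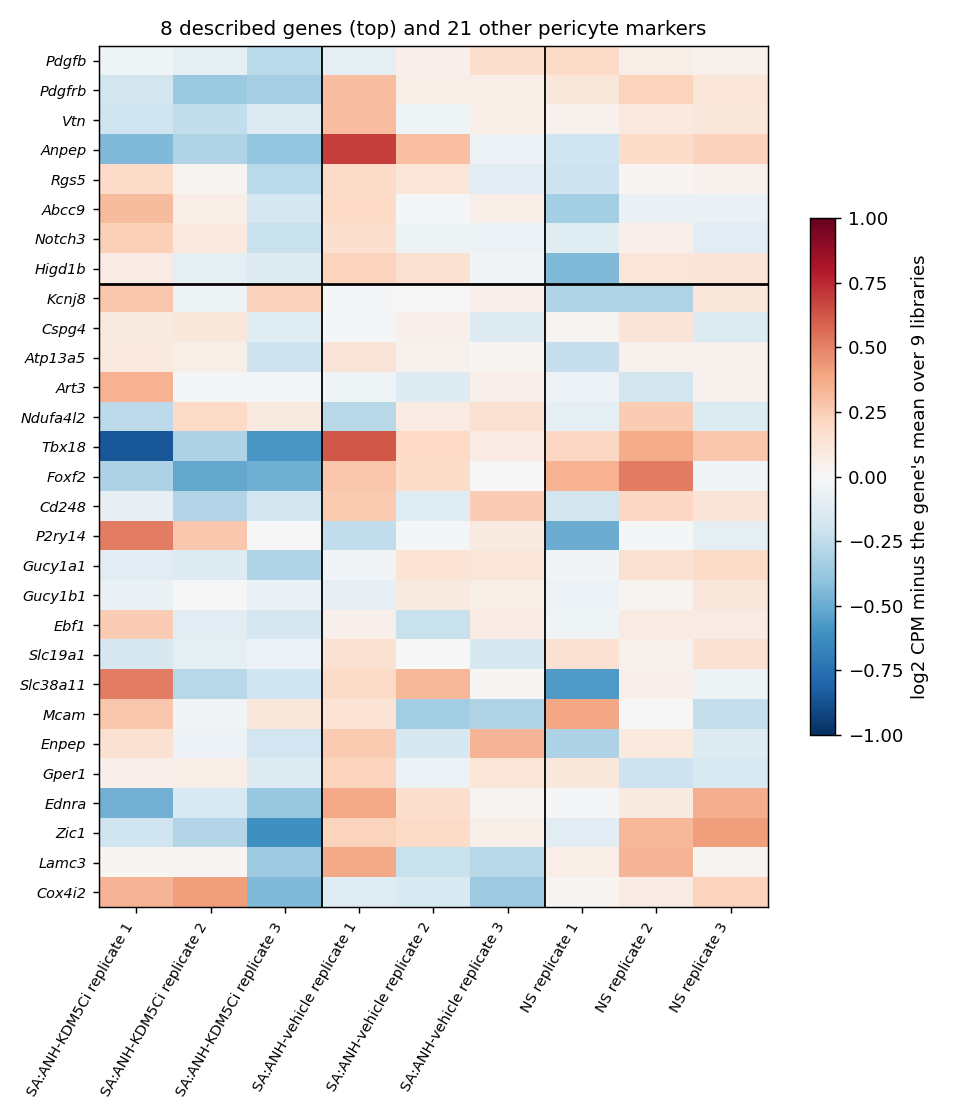
log2 CPM of the 8 genes (above the line) and of 21 other pericyte markers (below it) in each library, minus the gene's mean over the 9 libraries, with SA:ANH-KDM5Ci left, SA:ANH-vehicle in the middle and NS right. Blue fields in all 3 SA:ANH-KDM5Ci libraries mark, among others, Pdgfrb, Vtn, Anpep, Tbx18 and Foxf2, while Rgs5, Abcc9 and Notch3 are red in some of these libraries and blue in SA:ANH-KDM5Ci replicate 3.

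Although Notch3 itself did not pass, 4 of 14 other genes of the Notch pathway fell and 0 rose, with a median log2 fold change of -0.22. All 4 are targets of Notch signalling. The list was not uniform, with 3 positive and 11 negative log2 fold changes. Hes1, also on it, had 13.6, 16.1 and 14.7 CPM in SA:ANH-KDM5Ci libraries, against 9.7, 10.3 and 12.6 CPM in SA:ANH-vehicle libraries. It was higher without overlap but did not pass (log2 fold change 0.44, edgeR adjusted p = 0.0649). Hes5, a repressor found in neural progenitors and astrocytes, had 5.94, 4.17 and 3.01 CPM in SA:ANH-KDM5Ci libraries, against 10.9, 14.1 and 14.2 CPM in SA:ANH-vehicle libraries, far apart (log2 fold change -1.59, SE 0.20, edgeR adjusted p = 0.00259). Nrarp, a feedback inhibitor, was at 14.8 ± 1.18 CPM in SA:ANH-KDM5Ci and 21.2 ± 1.28 CPM in SA:ANH-vehicle (SD, n = 3 each; log2 fold change -0.52, edgeR adjusted p = 0.00181). Hey2 and Heyl, repressors active in vessels, fell by 0.58 and 0.75 on the log2 scale (edgeR adjusted p = 0.0358 and 0.0416). Both of these calls were lost without SA:ANH-KDM5Ci replicates 2 or 3 or SA:ANH-vehicle replicates 1 or 2, and that of Heyl without NS replicate 2, with adjusted p up to 0.159 for Hey2 and 0.18 for Heyl by the same test. With the replicate number as a block the adjusted p by edgeR was 0.0624 for Hey2 and 0.0672 for Heyl. With the meningeal and fibroblast score as a covariate only Nrarp of the 4 passed, and Hes5 had a log2 fold change of -1.80 (adjusted p = 0.0544 by edgeR).

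Among relatives of Rgs5, Anpep and Higd1b, 2 genes passed. Of 7 tested relatives of Rgs5 in the R4 family, Rgs2, which acts on Gq, fell to 40.2 ± 1.16 CPM in SA:ANH-KDM5Ci, against 52.6 ± 3.19 CPM in SA:ANH-vehicle (SD, n = 3 each; log2 fold change -0.39, edgeR adjusted p = 0.00789). Rgs1, a regulator found in immune cells, rose at very low counts, with 20, 11 and 22 counts in SA:ANH-KDM5Ci libraries, against 2, 7 and 4 counts in SA:ANH-vehicle libraries (edgeR adjusted p = 0.0241, and 0.0645 by DESeq2). It was also lost without SA:ANH-KDM5Ci replicates 1 or 3 or SA:ANH-vehicle replicates 1 or 3. Among 8 other M1 aminopeptidases, relatives of Anpep, 0 passed, with Enpep, aminopeptidase A, at -0.20 (adjusted p = 0.681 by edgeR) and Lvrn at 0.08 (adjusted p = 0.911). In the family of Higd1b 2 of 3 genes were tested and 0 passed, with log2 fold changes of 0.06 for Higd1a (adjusted p = 0.653 by edgeR) and 0.01 for Higd2a (adjusted p = 0.975).

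Signals between endothelium and mural cells, the basement membrane they share, and the endothelium were also listed. Of 17 genes of such signals 1 fell and 0 rose: Cxcl12, a chemokine, was at 77.0, 67.3 and 59.7 CPM in SA:ANH-KDM5Ci libraries, against 113, 99.5 and 98.1 CPM in SA:ANH-vehicle libraries (log2 fold change -0.61, SE 0.09, edgeR adjusted p = 0.00444). With the meningeal and fibroblast score as a covariate its log2 fold change was -0.45 (adjusted p = 0.301 by edgeR). Ednra, the endothelin receptor of contractile vessel cells, had a log2 fold change of -0.54 (adjusted p = 0.0677 by edgeR). None of 12 basement membrane genes passed with this test, among them Col4a2, a collagen IV chain, at 0.12 (adjusted p = 0.26), and Nid1, nidogen, at -0.39 (adjusted p = 0.293). Endothelial markers went in both directions, with 2 of 17 higher and 3 lower. Slc2a1, which carries glucose across brain endothelium, rose to 149 ± 13.8 CPM in SA:ANH-KDM5Ci, against 81.0 ± 3.22 CPM in SA:ANH-vehicle (SD, n = 3 each; log2 fold change 0.88, edgeR adjusted p = 1.33e-05). Mfsd2a, a lipid transporter of the blood-brain barrier, rose by 0.45 on the log2 scale (edgeR adjusted p = 0.00496). Cldn5, the tight junction protein, fell to 18.6 ± 0.842 CPM in SA:ANH-KDM5Ci, against 30.3 ± 0.41 CPM in SA:ANH-vehicle (log2 fold change -0.70, edgeR adjusted p = 1.56e-05), and Kdr, a VEGF receptor, fell by 0.84 (adjusted p = 0.00036). Summed endothelial markers were 511 to 601 CPM in SA:ANH-KDM5Ci and 506 to 531 CPM in SA:ANH-vehicle, and overlapped. These sums include Slc2a1 with its rise from 81.0 to 149 CPM, so they do not stand for the other markers. Of the 17 genes, 5 had positive and 12 negative log2 fold changes, with a median of -0.13.

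Of the 20 meningeal and fibroblast markers, 5 fell and 0 rose, and all 20 had negative log2 fold changes, with a median of -0.70. Those of lowest p were Crabp2, a retinoic acid binding protein, at -0.96 (edgeR adjusted p = 0.0113), Foxc2, a transcription factor of the meninges, at -1.45 (0.0157), Slc22a6, an organic anion transporter, at -0.96 (0.0212), and Lum, the collagen-binding proteoglycan lumican, at -1.04 (0.0329). Each of these calls was lost without certain libraries: SA:ANH-KDM5Ci replicate 1 or SA:ANH-vehicle replicate 2 for Crabp2, SA:ANH-KDM5Ci replicates 2 or 3 or SA:ANH-vehicle replicates 1 or 2 for Foxc2, SA:ANH-KDM5Ci replicates 1 or 3 or SA:ANH-vehicle replicate 1 for Slc22a6, and any SA:ANH-KDM5Ci library or SA:ANH-vehicle replicates 1 or 3 for Lum. With the score of this list as a covariate, 0 of the 8 pericyte and mural cell genes passed in any of the 3 comparisons, and the log2 fold changes against SA:ANH-vehicle were -0.38 for Pdgfb, -0.30 for Pdgfrb, 0.13 for Rgs5, 0.18 for Abcc9, 0.15 for Notch3 and 0.19 for Higd1b. The score separates SA:ANH-KDM5Ci from both other groups, so that group and score cannot be told apart well in such a fit, and the part of these markers in the results was not tested further. The covariate also ended the calls of Rgs1, Mfsd2a, Olig1 and Olig2 (edgeR adjusted p from 0.339 to 0.802), while Nrarp, Rgs2, Cldn5, Kdr and Slc2a1 still passed. Lists of other cells moved less. Of 7 oligodendrocyte precursor markers 2 rose, the transcription factors Olig2 and Olig1 at 0.72 and 0.47 (edgeR adjusted p = 0.0196 and 0.0416). The list did not move in 1 direction: 4 of its log2 fold changes were positive and 3 negative, with a median of 0.06. Sox10, also on it, had 14.6, 14.7 and 14.8 CPM in SA:ANH-KDM5Ci libraries, against 24.6, 18.7 and 18.3 CPM in SA:ANH-vehicle libraries. It was lower without overlap but did not pass. The call of Olig2 was lost without SA:ANH-KDM5Ci replicates 1 or 3 or SA:ANH-vehicle replicates 2 or 3, and that of Olig1 without any library of these groups or NS replicate 2. None of the 9 astrocyte, 9 microglia, 6 tested blood and 11 cortical neuron markers passed with this test. Examples were Fgfr3 at 0.17 and S100b at 0.21 in astrocytes (edgeR adjusted p = 0.0925 and 0.154), P2ry12 at -0.23 and Siglech at 0.23 in microglia (0.132 and 0.348), and Neurod6 at -0.26 in cortical neurons (0.282).

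**Figure D4:**
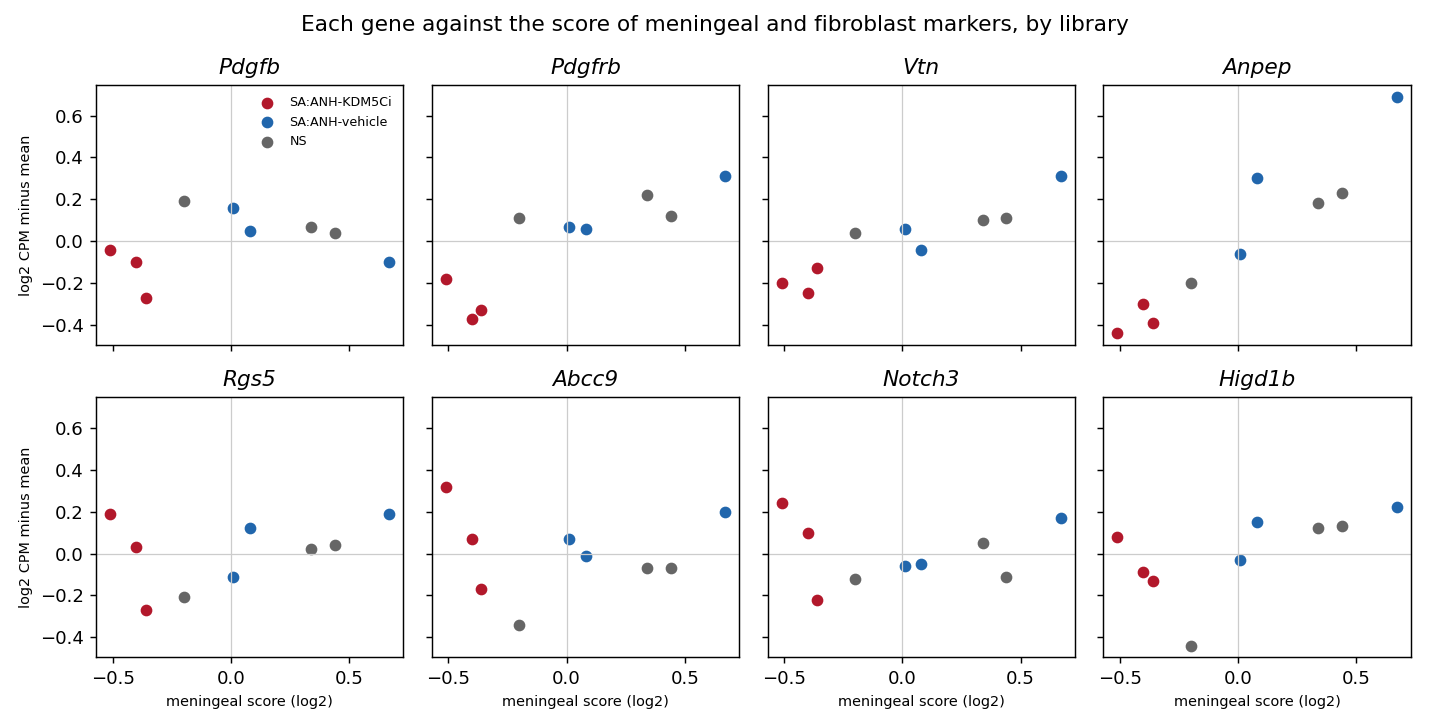
log2 CPM of each of the 8 genes minus its mean over the 9 libraries (vertical axes), against the score of the meningeal and fibroblast markers in the same library (horizontal axes, log2), with 1 point per library. The 3 SA:ANH-KDM5Ci libraries have the lowest scores, -0.51 to -0.36, and SA:ANH-vehicle replicate 1 the highest, 0.67. In that library Anpep, Pdgfrb, Vtn and Higd1b were also highest, and 7 of the 8 genes lay above their own mean.

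**Figure D5:**
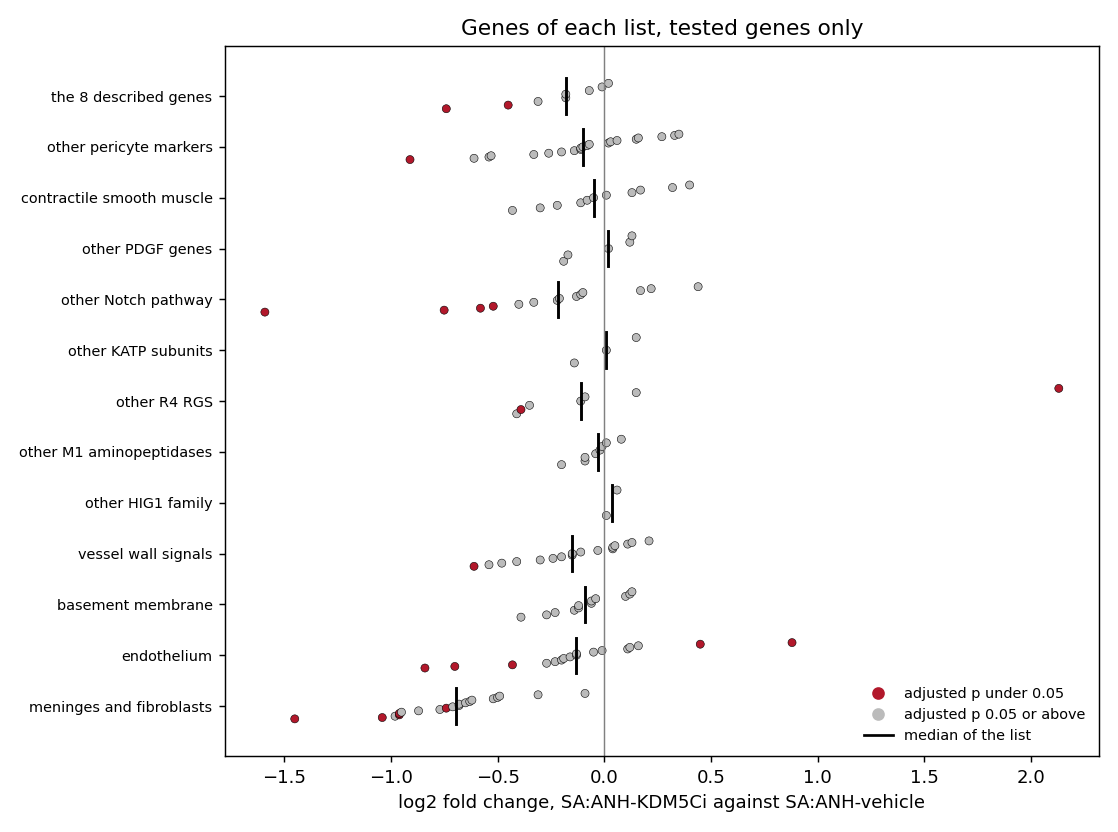
log2 fold change of SA:ANH-KDM5Ci against SA:ANH-vehicle (horizontal axis) for each tested gene of 13 lists, with red for an edgeR adjusted p under 0.05 and a vertical bar at each list's median. The median of the 8 genes was -0.18 and that of the other pericyte markers -0.10, whereas the meningeal and fibroblast markers all lay below 0, with a median of -0.70.

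The comparison of SA:ANH-vehicle with NS asks how defeated mice of this subtype differed from mice without stress. None of the 8 genes passed by edgeR, where 0.0132% of all genes tested did, and at an unadjusted p under 0.05 the count was also 0 of the 8, where 8.21% of all genes were. DESeq2 called 81 genes over the whole table and likewise 0 of the 8. Pdgfrb averaged 24.9 ± 2.5 CPM in SA:ANH-vehicle and 24.8 ± 1.04 CPM in NS (SD, n = 3 each), a log2 fold change of 0.00 with a 95% interval of -0.17 to 0.18. Vtn was at 0.03 (95% interval -0.13 to 0.20) and Pdgfb at -0.06 (95% interval -0.24 to 0.12). The widest intervals were those of the less abundant genes, with Anpep at 0.27 (-0.10 to 0.65) and Higd1b at 0.17 (-0.22 to 0.56).

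Abcc9 was the 1 gene of the 8 whose groups did not overlap in this comparison. It was at 13, 11.2 and 11.8 CPM in SA:ANH-vehicle libraries, against 8.90, 10.7 and 10.8 CPM in NS libraries, and the lowest SA:ANH-vehicle library was only a little above the highest NS library. The log2 fold change was 0.24 (95% interval -0.02 to 0.50, edgeR adjusted p = 0.638), and 8.29% of all genes tested were higher without overlap, 6.81% lower and 15.1% either. Rgs5 and Notch3, the genes with profiles close to it, were at 0.12 (95% interval -0.15 to 0.38) and 0.08 (95% interval -0.16 to 0.32), and their groups overlapped. Of the other lists only the blood markers held a gene that passed. Hbb-bs, a haemoglobin chain of red blood cells, rose to 143 ± 5.82 CPM in SA:ANH-vehicle, against 82.3 ± 5.51 CPM in NS (SD, n = 3 each; log2 fold change 0.79, edgeR adjusted p = 0.00143). Globin gene copies are near-identical, so how counts were split among them is uncertain. Alas2, the erythroid enzyme of haem synthesis, was at 0.77 (95% interval 0.51 to 1.04, edgeR adjusted p = 0.0579). Among the endothelial markers Cldn5 was lower, at 30.3 CPM in SA:ANH-vehicle and 38.9 CPM in NS. It did not pass either (log2 fold change -0.36, 95% interval -0.48 to -0.25, edgeR adjusted p = 0.0579).

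SA:ANH-KDM5Ci against NS shares its libraries with the other comparisons, so its values are not independent of them. Pdgfrb fell, and it was the 1 gene of the 8 that passed, where 2.11% of all genes tested fell, 1.86% rose and 3.97% did either. Its log2 fold change was -0.44 (SE 0.08, 95% interval -0.62 to -0.27, edgeR adjusted p = 0.00776), and the call held when any of the 9 libraries was left out, with adjusted p from 0.00273 to 0.0419 by the same test. Its groups and those of Pdgfb, Anpep and Vtn did not overlap, all lower, where 12% of all genes tested were lower without overlap, 11.5% higher and 23.5% either; these 4 genes also had an unadjusted p under 0.05, as had 18.5% of all genes. Pdgfb was at -0.24 (95% interval -0.42 to -0.06, edgeR adjusted p = 0.141), Anpep at -0.47 (-0.86 to -0.07, 0.192) and Vtn at -0.28 (-0.44 to -0.11, 0.0683). Abcc9 was at 0.24 (95% interval -0.03 to 0.50), Notch3 at 0.10 (-0.14 to 0.34), Rgs5 at 0.04 (-0.22 to 0.31) and Higd1b at -0.01 (-0.41 to 0.39).

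Of the 21 other pericyte markers, 4 fell against NS, namely Tbx18, Foxf2, Zic1 and Gucy1a1. In NS Gucy1a1 was at 18.6 CPM per kilobase of exon, above Rgs5 at 10.8 and below Vtn at 23.4. Which cells it came from cannot be told in whole tissue. Foxf2 was at 2.59, 2.26 and 2.29 CPM in SA:ANH-KDM5Ci libraries, against 4.15, 4.68 and 3.18 CPM in NS libraries (log2 fold change -0.76, SE 0.16, edgeR adjusted p = 0.0163). Leaving out NS replicate 3 or SA:ANH-KDM5Ci replicate 1 ended the calls of Tbx18, Zic1 and Gucy1a1 (edgeR adjusted p up to 0.188). Those of Zic1 and Gucy1a1 also failed without SA:ANH-KDM5Ci replicate 2 or SA:ANH-vehicle replicate 2. That of Gucy1a1 failed without SA:ANH-vehicle replicate 3 too. All 4 of these calls were lost without NS replicate 2 and without SA:ANH-KDM5Ci replicate 3, with adjusted p up to 0.146 by edgeR. With the meningeal and fibroblast score as a covariate they were lost too (edgeR adjusted p = 0.334 for Tbx18, 0.199 for Foxf2, 0.522 for Zic1 and 0.342 for Gucy1a1), as was that of Pdgfrb (0.255). All 20 meningeal and fibroblast markers had negative log2 fold changes against NS, with a median of -0.65. Of these 2 fell, Slc22a6 at -0.82 and Igfbp2 at -0.36 (edgeR adjusted p = 0.0384 and 0.0288). Without NS replicates 2 or 3, SA:ANH-KDM5Ci replicates 1 or 3 or SA:ANH-vehicle replicate 2 the call of Slc22a6 was lost. That of Igfbp2 was lost without any 1 of the NS libraries or SA:ANH-KDM5Ci replicates 1 or 2. Of the 14 Notch pathway genes 6 fell against NS, these being Hes5, Hey1, Hey2, Heyl, Nrarp and the ligand Jag2. Hes1 was higher than in NS without overlap but did not pass (log2 fold change 0.39, edgeR adjusted p = 0.0804). The calls of Hey1 and Jag2 were lost without any 1 of the SA:ANH-KDM5Ci or NS libraries or SA:ANH-vehicle replicate 3, that of Jag2 also without SA:ANH-vehicle replicate 2, and that of Heyl without NS replicate 3. Nrarp was at 14.2, 16.2 and 14 CPM in SA:ANH-KDM5Ci libraries, against 23.8, 23.1 and 23.8 CPM in NS libraries (log2 fold change -0.67, SE 0.07, edgeR adjusted p = 0.000162). With the score as a covariate Nrarp and Hes5 passed, while the calls of Jag2, Hey1, Hey2 and Heyl were lost (edgeR adjusted p = 0.228, 0.199, 0.164 and 0.255). In the other lists the genes called against NS were Rgs4, S1pr3, Cxcl12, Cldn5, Kdr, Slco1a4 and Itm2a, which fell, and Rgs1, Slc2a1, Olig2 and the red blood cell genes Hba-a1, Hba-a2, Hbb-bs and Alas2, which rose. Of these genes, Cldn5, Kdr, Slc2a1 and Hbb-bs passed with the covariate. The call of Itm2a was lost without any 1 of the SA:ANH-KDM5Ci or NS libraries or SA:ANH-vehicle replicate 2. That of Slco1a4 was lost without replicates 2 or 3 of any group. That of S1pr3 was lost without NS replicates 2 or 3 or SA:ANH-KDM5Ci replicates 1 or 3. That of Hba-a1 was lost without NS replicates 2 or 3, and that of Alas2 without NS replicate 3.

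Genes with the most similar profiles were sought among 13510 genes with a mean of at least 1 CPM, by the root mean square difference over the 9 libraries. For Pdgfrb, whose own spread around its mean was 0.23, these were Sall1 (0.06), Zfp287 (0.07) and Zbtb34 (0.07). For Vtn, with an own spread of 0.17, they were Ahr (0.05), Zfp287 (0.05) and Cd276 (0.06). Zfp287 was thus near to both. For Anpep, with the widest spread at 0.36, they were Pcolce (0.10), Mrc2 (0.12) and Col1a2 (0.12), and Col1a2, a chain of fibrillar collagen, is in the meningeal and fibroblast list. Phc3 (0.03) and Dock8 (0.05) were among the 3 nearest to Rgs5, Adgrf5, Tmtc4 and Cdc14b were nearest to Notch3 (0.05 each), and Ccdc141, Ern1 and Nipbl to Abcc9 (0.07 to 0.08). Pdgfb was nearest to Radil, Sox12 and Nkiras2 (0.06 each), and Higd1b to Il13ra1, Gm7102 and Zfp867 (0.05 to 0.09). These are descriptions over 9 libraries, and many other genes lay nearer to each gene than its own spread.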

How the data were processed

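Frozen medial prefrontal cortex of 9 samples, 3 per group, was profiled by RNA sequencing. Per the labels' protocols, a Direct-zol kit gave the RNA, and 1 ug of it went into strand-specific SureSelect libraries. The submitters' processing notes name Trimmomatic 0.32, Bowtie2 2.2.3 and TopHat2 2.0.13, with the build mm10. The authors deposited 1 table of expected counts per gene, not normalized and in part fractional, per the values themselves. The counting tool and its strand setting are not given in the sources used here.

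Of 36172 features, 16922 were at 0 in all libraries and 32891 matched a symbol of RefSeq's GRCm38.p6 annotation. The others held 0.367% of the counts. Exon lengths came from the GENCODE annotation of GRCm38. The expected counts were rounded, filtered with filterByExpr, which left 15144 genes, all 8 described genes among them, and scaled by TMM (factors 0.987 to 1.01). Genes were tested by edgeR's quasi-likelihood F test (edgeR 4.0.16, R 4.3.3, robust moderation) with 1 mean per group over all 9 libraries and a threshold of 0.05 on the Benjamini-Hochberg adjusted p. Standard errors were derived from the log2 fold change and its F statistic, and intervals from the moderated degrees of freedom. CPM uses TMM-scaled totals, and log2 CPM a prior count of 2. The common biological coefficient of variation was 6.95%. Totals ran from 29845097 to 42196472 counts, so 3 counts, the most that a count of 0 allows, correspond to 0.1 CPM at the lowest depth and 0.0703 CPM at the highest, for counting error only. Chi-square per degree of freedom between replicates was 3.18 to 15.8, and no libraries were duplicates.

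The genes, 18 other lists, tests and alternatives were chosen with earlier results of these data known. From each list the text names the genes that passed in SA:ANH-KDM5Ci against SA:ANH-vehicle or in SA:ANH-vehicle against NS, at most 4 by lowest p over both comparisons, and where fewer than 2 passed those of lowest p up to 2. Genes called in SA:ANH-KDM5Ci against NS, and Myh11, Cspg4, Atp13a5, Hes1 and Sox10, are named besides this rule, after their values were seen. Some genes that the rule selects are not reported here. The alternatives were limma-voom (limma 3.58.1), DESeq2 1.42.0, its size factors in edgeR, no TMM, other filters, only the 2 groups compared, no robust moderation, unrounded counts, the replicate number as a block, the meningeal and fibroblast score as a covariate, and each library left out. The scripts were tested on simulated data.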

Additional observations from a re-analysis of the deposited data

How the results depend on the processing

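Of the fold changes of the 8 genes under settings other than leaving out a library, 245 kept direction and side of the threshold, 5 came to pass, 8 no longer passed and 6 changed sign. The cause was not tested. With the meningeal and fibroblast score as a covariate Rgs5 was at 0.13, Abcc9 at 0.18 and Higd1b at 0.19 against SA:ANH-vehicle, and Anpep at 0.05 and Higd1b at 0.33 in SA:ANH-KDM5Ci against NS, where limma-voom gave Higd1b 0.02. Leaving out a library moved Abcc9 over -0.14 to 0.11, Notch3 over -0.08 to 0.15 and Rgs5 over -0.18 to 0.05 against SA:ANH-vehicle, Vtn over -0.08 to 0.11 in SA:ANH-vehicle against NS, and Higd1b over -0.18 to 0.09 and Rgs5 over -0.07 to 0.16 in SA:ANH-KDM5Ci against NS. Of the 8 genes, 1 passed against SA:ANH-vehicle under limma-voom, a stricter filter, only the 2 groups compared, no robust moderation or the replicate block, each of which lost Anpep, and 0 with the covariate (1 to 2 with a library left out). Vtn also passed under DESeq2, no filter or no TMM and, in place of Anpep, without SA:ANH-vehicle replicate 2. In SA:ANH-KDM5Ci against NS 2 passed by DESeq2 or with only the 2 groups, adding Vtn, as did leaving out SA:ANH-vehicle replicate 1, and 0 with the covariate (1 to 2 with a library left out).

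Over all genes, the covariate gave 46 calls in place of 380 against SA:ANH-vehicle (45 shared), 115 in place of 601 in SA:ANH-KDM5Ci against NS (107 shared) and 6 in place of 2 in SA:ANH-vehicle against NS, where DESeq2 gave 81, no TMM 11, no filter 11 and only the 2 groups 17. Leaving out a library gave 203 to 429 calls in SA:ANH-KDM5Ci against SA:ANH-vehicle (253 or fewer without SA:ANH-KDM5Ci replicate 3 or SA:ANH-vehicle replicates 1 or 2), 269 to 747 in SA:ANH-KDM5Ci against NS (398 or fewer without NS replicates 2 or 3 or SA:ANH-KDM5Ci replicates 1 or 3) and 2 to 17 in SA:ANH-vehicle against NS (most without SA:ANH-KDM5Ci replicate 3).

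Whether the replicate numbers pair samples across groups is not settled here. Deviations of same-numbered libraries correlated at -0.14 to 0.24, and at 0.24, 0.08 and 0.18 in SA:ANH-KDM5Ci against SA:ANH-vehicle. A library correlated best with its own number in 8 of 18 cases. With 3 libraries per group these values cannot decide the question. With the replicate number as a block, 363, 2 and 708 genes passed in SA:ANH-KDM5Ci against SA:ANH-vehicle, SA:ANH-vehicle against NS and SA:ANH-KDM5Ci against NS, and Anpep was at -0.73 (edgeR adjusted p = 0.0801). With 3 libraries per group, the intervals of Anpep and Higd1b were the widest of the 8.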
